A study of Mus musculus with 15 samples.

Results

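The genes described here encode the collagen chains, the laminin chains and close partners of the basement membrane, followed in mouse embryonic stem cells (mESCs) and in embryoid bodies (EBs), floating aggregates in which these cells differentiate. They are all protein-coding genes whose GENCODE M21 symbol names a collagen alpha chain or a laminin alpha, beta or gamma chain, plus the nidogen genes Nid1 and Nid2, the perlecan gene Hspg2, Sparc and Serpinh1. This rule uses no measured value and gave 60 of the 55471 gene IDs in the count tables, 44 of them collagen chains, 11 laminin chains and 5 partners. By role they comprise 6 chains of collagen IV, 11 fibrillar chains, 9 fibril-associated (FACIT) chains, 12 beaded-filament, anchoring or network-forming chains, 4 transmembrane chains and 2 multiplexins, which are the precursors of endostatin-like fragments.

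A basement membrane is a thin sheet of matrix under epithelia. Laminin trimers of an alpha, a beta and a gamma chain polymerise at the cell surface through integrins and dystroglycan, a collagen IV network assembles on them, and nidogens and perlecan tie the layers together. In the early mouse embryo parietal and visceral endoderm secrete much of this matrix, and in EBs a basement membrane forms between the outer endoderm and the inner cells. Serpinh1 encodes HSP47, a chaperone of the endoplasmic reticulum that binds the procollagen triple helix, and Sparc encodes a secreted glycoprotein that binds collagens.

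The 15 libraries form 5 groups of 3. In NSD1-dTAG cells a degron tag was knocked into NSD1, a histone H3K36 methyltransferase, and dTAG-13 directs proteins with such a tag to degradation. NSD1-dTAG EBs were grown for 6 days with 500 nM dTAG-13 throughout, or nontreated. The mESC groups were nontreated NSD1-dTAG cells, wild-type cells given 500 nM dTAG-13 for 72 h and nontreated wild-type cells. All cells are E14, the mESCs were kept in 2i/LIF medium that holds them undifferentiated, and EBs were made in serum medium without these factors. The labels name 3 biological replicates per group and do not say whether NSD1-dTAG is 1 clone or how cultures were separated, so the p-values rest on the spread among libraries, which may be technical. Wild-type EBs and NSD1-dTAG mESCs with dTAG-13 were not analysed here, so in EBs an effect of losing NSD1 and one of the compound cannot be told apart.

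Libraries held 18704591 to 29103958 gene counts. Levels are given as CPM, gene counts relative to the library's total, scaled with TMM factors over all 15 libraries that correct for differences in composition, and levels of different genes are compared only per kb of exon. In each group 1 library stood apart on principal component 3 and had the group's shortest read-weighted exon length and its largest share of ribosomal protein counts. These libraries are replicate 3 of the dTAG-13 EBs, replicate 3 of the nontreated EBs, replicate 1 of the NSD1-dTAG mESCs, replicate 3 of the dTAG-13 wild-type mESCs and replicate 1 of the nontreated wild-type mESCs. Pluripotency markers matched the labels, with 7 of 7 genes at 1 CPM or more in every library. Their sum was 1300 to 1397 CPM in dTAG-13 EBs, 1662 to 1759 CPM in nontreated EBs and 4743 to 5377 CPM in mESCs. The sum of 12 parietal endoderm markers was 174 to 388 CPM in dTAG-13 EBs, 410 to 440 CPM in nontreated EBs and 40.4 to 60.6 CPM in mESCs. Fst made up most of the mESC sum, with 1050 counts in nontreated wild-type replicate 1. Only 1 to 4 of the 12 reached 1 CPM in an mESC library. The sum of 12 mesenchyme markers was 72.6 to 95.2 CPM in dTAG-13 EBs, 162 to 317 CPM in nontreated EBs and 393 to 517 CPM in mESCs. Vim made up most of the mESC sum, with 12745 counts in nontreated wild-type replicate 1. Only 2 to 4 of these 12 markers reached 1 CPM in an mESC library, against 5 to 7 in a nontreated EB library. Spike-in RNA made up 0.292% to 0.496% of counts in mESC libraries and was at 0 in EB libraries, so the making of the libraries and differentiation cannot be told apart between EBs and mESCs. Nsd1 RNA was present in all libraries (182 to 405 CPM) and was not called in any comparison. The compound targets NSD1 protein, and no protein was assayed.

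Collagen IV chains are encoded as head-to-head gene pairs. The promoters of 4 chains are shown because both chains of each pair were higher in nontreated EBs than in NSD1-dTAG mESCs. Whether a shared promoter region bears on these levels was not tested. The windows run from 250 bases before to 50 bases after the RefSeq start (GRCm38.p6) and are written 5′ to 3′ on the gene's own strand. Col4a1 (minus strand, chr8:11312777-11313076) and Col4a2 (plus strand, chr8:11312555-11312854) start 21 bases apart, and their windows share 78 bases. Col4a5 (plus strand, chrX:141475169-141475468) and Col4a6 (minus strand, chrX:141474027-141474326) start 1343 bases apart. Capitals mark the GC box GGGCGG and the CCAAT box CCAAT on either strand, which read CCGCCC and ATTGG on the other strand.

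Col4a1: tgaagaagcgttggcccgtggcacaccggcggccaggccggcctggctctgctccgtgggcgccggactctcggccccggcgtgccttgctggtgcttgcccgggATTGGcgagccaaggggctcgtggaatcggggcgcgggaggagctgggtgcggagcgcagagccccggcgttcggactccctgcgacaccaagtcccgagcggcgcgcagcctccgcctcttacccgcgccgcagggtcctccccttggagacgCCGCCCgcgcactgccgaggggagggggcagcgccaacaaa
Col4a2: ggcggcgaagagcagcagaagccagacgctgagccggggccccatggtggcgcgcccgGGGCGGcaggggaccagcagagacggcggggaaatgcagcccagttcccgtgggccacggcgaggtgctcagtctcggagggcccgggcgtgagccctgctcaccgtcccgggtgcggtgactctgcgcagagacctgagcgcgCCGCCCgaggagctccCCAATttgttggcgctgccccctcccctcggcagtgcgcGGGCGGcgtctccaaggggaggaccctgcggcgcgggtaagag
Col4a5: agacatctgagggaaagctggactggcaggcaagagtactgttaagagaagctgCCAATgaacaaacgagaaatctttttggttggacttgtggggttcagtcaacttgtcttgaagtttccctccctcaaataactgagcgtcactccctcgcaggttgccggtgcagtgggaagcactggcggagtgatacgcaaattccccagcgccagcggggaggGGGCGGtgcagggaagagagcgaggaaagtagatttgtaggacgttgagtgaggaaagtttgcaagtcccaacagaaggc
Col4a6: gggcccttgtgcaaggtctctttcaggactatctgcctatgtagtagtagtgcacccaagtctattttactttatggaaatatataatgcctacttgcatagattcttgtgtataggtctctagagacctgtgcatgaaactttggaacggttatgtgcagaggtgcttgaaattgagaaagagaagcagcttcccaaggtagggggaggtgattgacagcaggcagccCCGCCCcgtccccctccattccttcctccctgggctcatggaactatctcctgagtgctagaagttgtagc

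The Col4a1 window holds 1 GC box and 1 CCAAT box, the Col4a2 window 3 and 1, the Col4a5 window 1 and 1, and the Col4a6 window 1 and 0. Within a window no match overlaps another, but the GC box of the Col4a1 window and the third of the Col4a2 window are the same site in the shared bases. Of all 32851 windows in the RefSeq table, 35.7% hold the GC box and 37.4% the CCAAT box. The TATA box TATAAA and the GATA motif AGATAA, searched on both strands and held by 13.6% and 11.2% of all windows, have no match in these 4 windows. CpG dinucleotides number 37 and 33 in the Col4a1 and Col4a2 windows, against 11 and 3 in the Col4a5 and Col4a6 windows and a median of 7 over all windows. Letters in a window are a description and show no binding. A window was found for 44 of the 60 genes.

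Together the 60 genes took a small share of all counts, and the share differed between EBs and mESCs mostly through collagens. It was 0.435% ± 0.0651 in dTAG-13 EBs, 0.422% ± 0.0554 in nontreated EBs, 0.313% ± 0.0933 in NSD1-dTAG mESCs, 0.267% ± 0.0416 in dTAG-13 wild-type mESCs and 0.271% ± 0.0297 in nontreated wild-type mESCs (SD, n = 3 each). Summed collagen chains stood at 1106 ± 310 CPM in dTAG-13 EBs and 1108 ± 95.7 CPM in nontreated EBs, against 325 ± 46.1 CPM in NSD1-dTAG mESCs. Summed laminin chains were nearly level, at 1309 ± 119 CPM in dTAG-13 EBs, 1230 ± 227 CPM in nontreated EBs and 1266 ± 409 CPM in NSD1-dTAG mESCs. Group means reached 1 CPM for 36 members in dTAG-13 EBs, 40 in nontreated EBs, 17 in NSD1-dTAG mESCs, 21 in dTAG-13 wild-type mESCs and 22 in nontreated wild-type mESCs. At 100 CPM or more stood 11 members in either EB group and 8 in each mESC group. Col10a1, a chain of hypertrophic cartilage, had 0 counts in all 15 libraries. Another 12 members, among them Col4a3 and Col4a4 of the glomerular collagen IV network, never exceeded 14 counts in a library.

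Per kb of exon, the order of the abundant members differed between the stages. In nontreated EBs the highest was Nid2 at 149 ± 24.7 CPM per kb, followed by Serpinh1 at 96.7 ± 1.85, Sparc at 89.3 ± 18.9, Col18a1 at 74.8 ± 3.45 and Lamc1 at 48.1 ± 8.81 CPM per kb (SD, n = 3). Sparc lies within 1 of its SDs of both Serpinh1 and Col18a1, and Col4a1 at 37.4 ± 6.84 and Lamb1 at 32.6 ± 4.69 CPM per kb lie within 1 SD of each other, while the steps from Nid2 to Serpinh1 and from Col18a1 to Lamc1 are larger than either gene's SD. In NSD1-dTAG mESCs Nid2 was again highest, at 145 ± 30.3 CPM per kb, followed by Lamc1 at 92.3 ± 33.3, Sparc at 70.8 ± 1.14, Col18a1 at 42.1 ± 6.03 and Nid1 at 34.5 ± 8.999 CPM per kb. Serpinh1 and Col4a1 stood there at 2.31 ± 0.195 and 0.397 ± 0.111 CPM per kb. The mESCs thus held laminin gamma 1 and nidogen RNA at high levels while collagen IV and the collagen chaperone were low. These orders depend on the gene length used. Sparc has 3.788 kb of exon but a longest transcript of 2.3 kb. Per kb of longest transcript, its mean lies above that of Serpinh1 in nontreated EBs and of Lamc1 in NSD1-dTAG mESCs. The Lamc1 to Lamb1 ratio in nontreated EBs is then 0.93, against 1.47 per kb of exon.

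**Figure D1:**
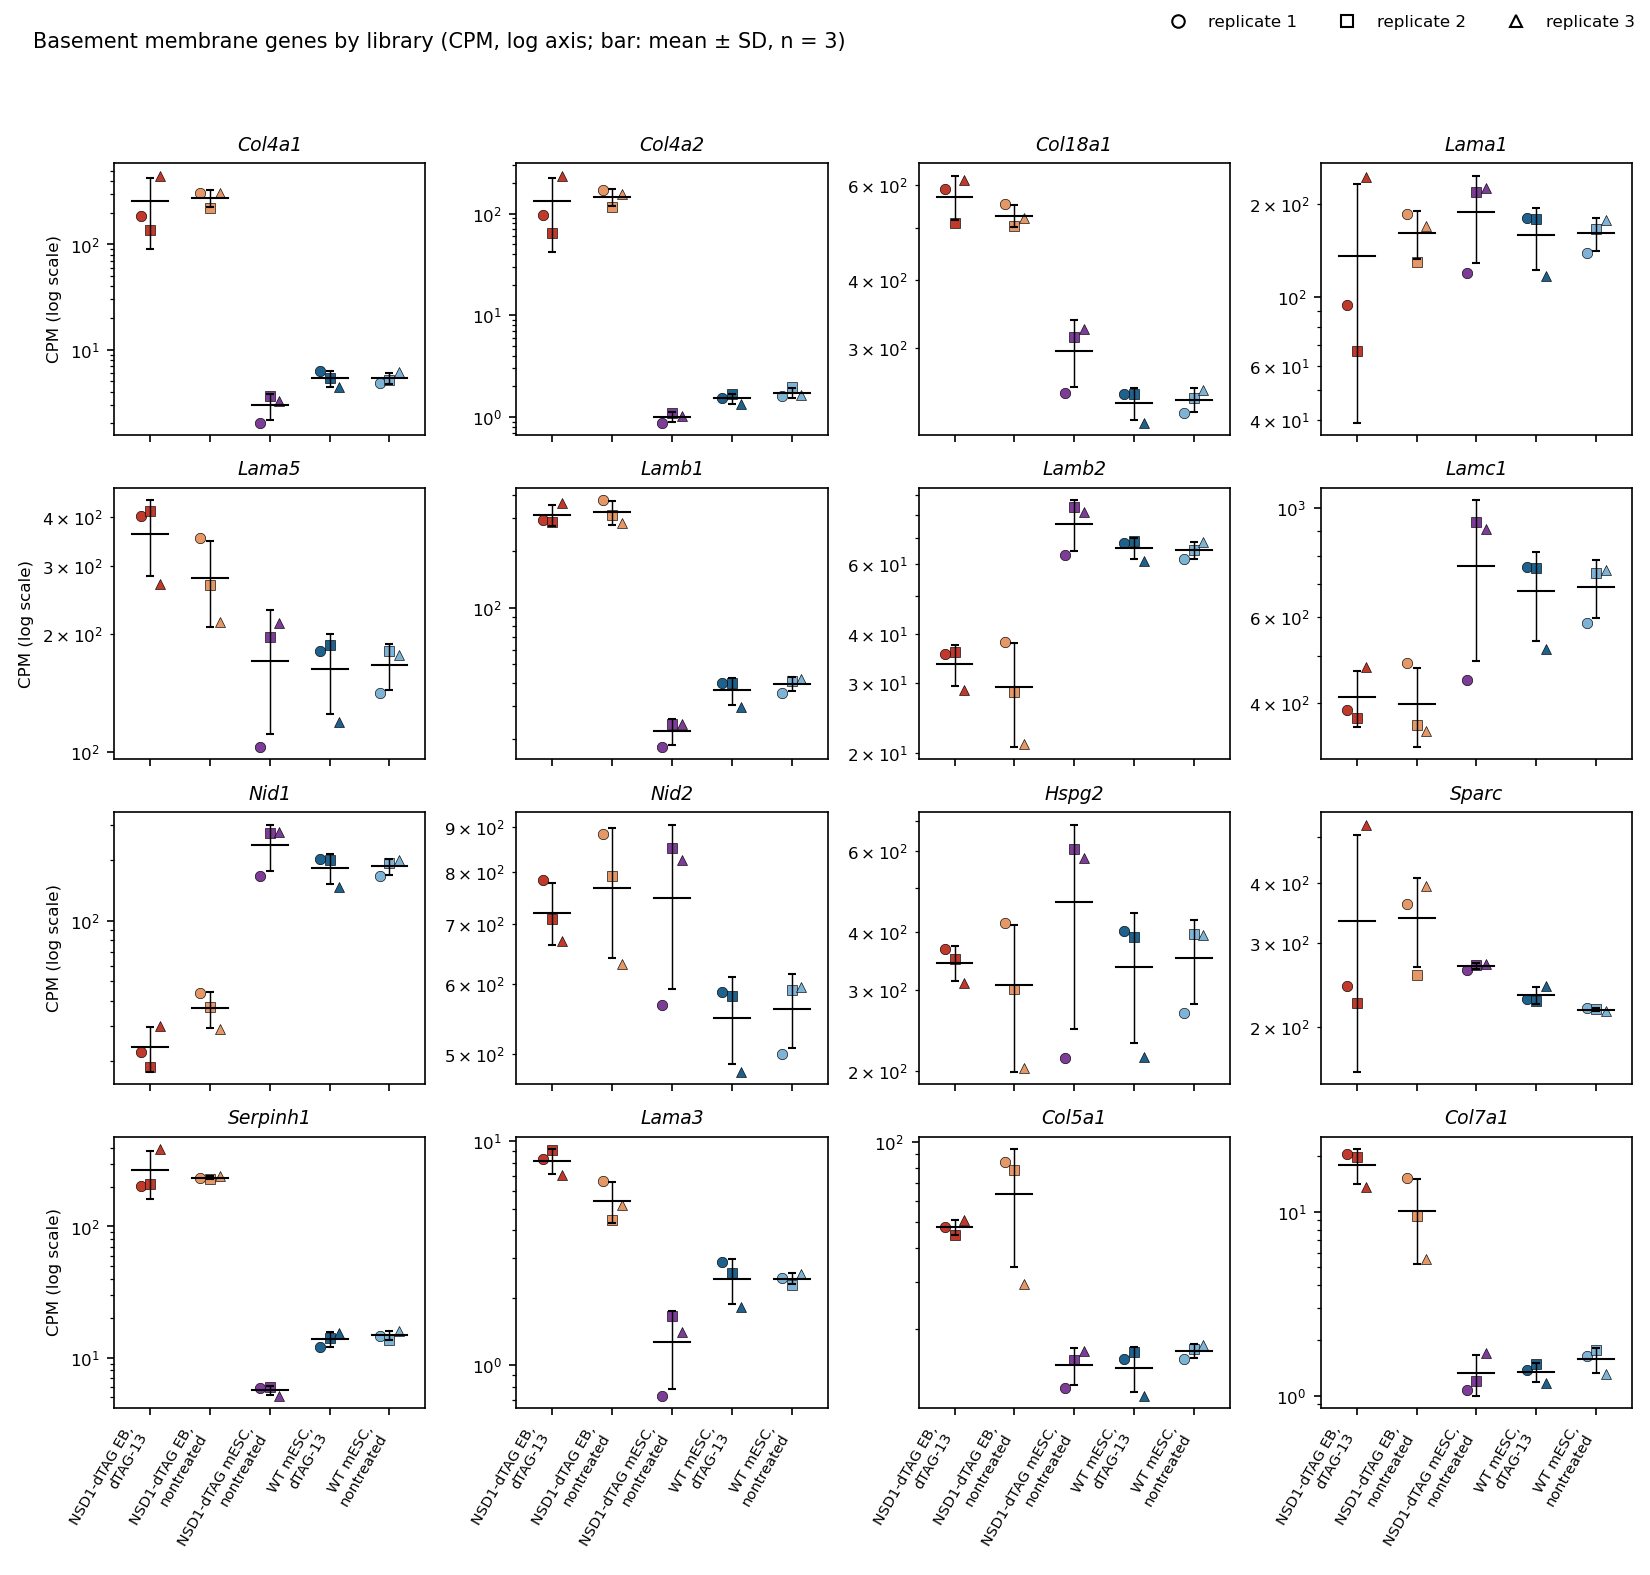
CPM on a log axis of 16 members in each of the 15 libraries. Bars give the mean ± SD of each group (n = 3), and the marker shape gives the replicate number. Col4a1, Col4a2, Lamb1 and Serpinh1 are far higher in both EB groups than in all mESC groups, while Nid1 and Lamb2 are lower in EBs; in dTAG-13 EBs, replicate 3 lies apart from replicates 1 and 2 for Col4a1, Col4a2, Lama1 and Sparc.

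The comparison of nontreated EBs with nontreated NSD1-dTAG mESCs asks what differentiation of the tagged line does to these genes. Collagen IV, the laminin beta 1 chain and the collagen chaperone were much higher in EBs, whereas Nid1, Lamb2 and Lamc1 were lower and Lama1, Nid2 and Hspg2 did not pass the test. Of 46 members tested, 35 were higher and 3 lower by edgeR's quasi-likelihood test at a Benjamini-Hochberg adjusted p below 0.05. Of all 15193 genes tested, 33.1% were higher and 26.3% lower, and the median log2 fold change was 3.09 over the members tested and 0.02 over all genes. The other 14 members did not reach the count filter. A gene that passes it only through EBs had to differ, so these counts describe the members tested and not all 60. In bulk RNA, more cells of a type and more RNA per cell cannot be told apart.

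Col4a1 encodes the major alpha chain of the embryonic collagen IV network. It had 310, 220 and 307 CPM in nontreated EBs, against 2.03, 3.62 and 3.23 CPM in NSD1-dTAG mESCs, a log2 fold change of 6.58 ± 0.27 (SE; edgeR adjusted p = 8.26e-07, Benjamini-Hochberg). Col4a2, its partner in the trimer, had 169, 115 and 157 CPM in nontreated EBs, against 0.881, 1.09 and 1.02 CPM in NSD1-dTAG mESCs (log2 7.22 ± 0.22, edgeR adjusted p = 3.48e-07). Every EB library lay far above every mESC library for both chains. The ratio of Col4a1 to Col4a2 per kb was 1.63, 1.69 and 1.73 in nontreated EBs, against 2.04, 2.94 and 2.81 in NSD1-dTAG mESCs, where both genes were low. The annotated exons of Col4a1 (chr8:11198423-11312826) and Col4a2 (chr8:11312805-11449287) overlap by 22 bases on opposite strands, which is 0.29% and 0.33% of their exon length.

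The X-linked collagen IV pair was higher in EBs as well, at lower levels. Col4a5, a chain of the network found in kidney and skin, had 4.04, 4.70 and 3.99 CPM in nontreated EBs, against 0, 0 and 0.0425 CPM in NSD1-dTAG mESCs. This is 365 counts against 1 count, a ratio of 324 with a 95% interval for counting error of 57.7 to 12821. Col4a6, its neighbour, had 42, 57 and 48 counts in nontreated EBs, against 0 in all 3 NSD1-dTAG mESC libraries, and was at least 43.5-fold higher when set against 3 counts over the group. All 9 mESC libraries had 0 counts of Col4a6. The ratio of Col4a5 to Col4a6 per kb was 2.96 ± 0.215 in nontreated EBs (SD, n = 3).

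Serpinh1 had 236, 232 and 241 CPM in nontreated EBs, against 5.90, 5.96 and 5.10 CPM in NSD1-dTAG mESCs (log2 5.40 ± 0.12, edgeR adjusted p = 2.53e-07). The groups do not overlap, and the spread within each was small. The multiplexin Col18a1, whose product is a proteoglycan of basement membranes, had 552, 504 and 520 CPM in nontreated EBs, against 247, 314 and 325 CPM in NSD1-dTAG mESCs (log2 0.85 ± 0.14, edgeR adjusted p = 0.000816). Sparc had 363, 257 and 394 CPM in nontreated EBs, against 263, 270 and 271 CPM in NSD1-dTAG mESCs, groups that overlap (log2 0.35 ± 0.16, edgeR adjusted p = 0.0874). Without replicate 2 of the nontreated EBs the Sparc difference was called (0.52, adjusted p = 0.0126).

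Among the laminins, the beta chains exchanged order. Lamb1, the beta chain of the embryonic laminins, had 375, 311 and 284 CPM in nontreated EBs, against 18.2, 24.1 and 24.1 CPM in NSD1-dTAG mESCs (log2 3.89 ± 0.18, edgeR adjusted p = 1.21e-06). Lamb2, the beta chain of synaptic and glomerular laminins, had 38.3, 28.5 and 21.1 CPM in nontreated EBs, against 63.3, 83.8 and 81.2 CPM in NSD1-dTAG mESCs, and was lower in EBs (log2 -1.36 ± 0.22, edgeR adjusted p = 0.000973). The groups do not overlap for either gene, and the Lamb1 to Lamb2 ratio per kb was 6.00, 6.68 and 8.25 in nontreated EBs, against 0.176, 0.177 and 0.182 in NSD1-dTAG mESCs. Lamc1, the gamma chain common to most laminins, had 482, 361 and 351 CPM in nontreated EBs, against 446, 939 and 906 CPM in NSD1-dTAG mESCs. The Lamc1 groups overlap through mESC replicate 1, and the lower level in EBs (log2 -0.92 ± 0.28, edgeR adjusted p = 0.0215) was not called without mESC replicate 2 (-0.78, adjusted p = 0.0522), EB replicate 2 (-0.86, adjusted p = 0.0772) or EB replicate 3 (-0.84, adjusted p = 0.0716).

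Among the alpha chains, which carry the main receptor-binding domains, the low chains Lama3 and Lama4 were higher and the abundant ones were not called. Lama1, the alpha chain of the embryonic laminin that endoderm makes first, had 185, 130 and 170 CPM in nontreated EBs, against 120, 219 and 226 CPM in NSD1-dTAG mESCs (log2 -0.20 ± 0.25, edgeR adjusted p = 0.516). Lama5 had 352, 268 and 215 CPM in nontreated EBs, against 103, 197 and 214 CPM in NSD1-dTAG mESCs, groups that lie next to each other without overlapping (log2 0.72 ± 0.29, edgeR adjusted p = 0.0604). mESC replicate 1 was the lowest of its group for both, and without it Lama1 was called lower (-0.48, adjusted p = 0.0194). Lama5 was called higher without mESC replicate 3 (0.88, adjusted p = 0.0388) or EB replicate 3 (0.88, adjusted p = 0.0470). Lama3, the alpha chain of epithelial anchoring laminins, had 6.64, 4.43 and 5.17 CPM in nontreated EBs, against 0.728, 1.66 and 1.40 CPM in NSD1-dTAG mESCs (log2 2.11 ± 0.31, edgeR adjusted p = 0.000544). Lama4, the chain of endothelial and mesenchymal laminins, had 3.39, 2.49 and 2.03 CPM in nontreated EBs, against 0.0379 ± 0.0377 CPM in NSD1-dTAG mESCs (SD, n = 3). This is 226 counts against 3 counts, a ratio of 66.8 (95% counting interval 22.6 to 326). Both chains were higher in all 3 EB libraries than in any mESC library.

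The linkers diverged. Nid1 had 43.9, 37.3 and 29.1 CPM in nontreated EBs, against 167, 275 and 276 CPM in NSD1-dTAG mESCs, and fell to 0.156 of the mESC level (log2 -2.68 ± 0.24, edgeR adjusted p = 3.33e-05). Nid2, its paralogue, had 883, 793 and 631 CPM in nontreated EBs, against 568, 851 and 826 CPM in NSD1-dTAG mESCs (log2 0.06 ± 0.19, edgeR adjusted p = 0.814). Nid1 groups are fully apart and Nid2 groups overlap, so the Nid2 to Nid1 ratio per kb was 28.2 ± 1.08 in nontreated EBs, against 4.24 ± 0.280 in NSD1-dTAG mESCs (SD, n = 3 each). Nid2 shares 437 bases (8.45% of its exons) with Rtraf on the opposite strand, and Rtraf was not called here (log2 -0.49). Hspg2, the heparan sulphate proteoglycan perlecan, had 419, 301 and 202 CPM in nontreated EBs, against 213, 607 and 579 CPM in NSD1-dTAG mESCs (log2 -0.58 ± 0.40, edgeR adjusted p = 0.245). Without mESC replicate 1, in which Hspg2 was low, it was called lower in EBs (-0.97, adjusted p = 0.0101). Lamb3, which joins Lama3 in the anchoring laminin of skin, was higher in EBs (log2 4.14 ± 0.48, edgeR adjusted p = 0.000134).

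Collagens outside the basement membrane were mostly low in mESCs and higher in EBs. Of the 10 fibrillar chains tested 9 were higher. Col1a2, a chain of the main stromal fibril, had 4.79, 12.1 and 3.99 CPM in nontreated EBs, against 0.153, 0.189 and 0.170 CPM in NSD1-dTAG mESCs (log2 5.33 ± 0.59, edgeR adjusted p = 0.000103), and Col2a1, the cartilage fibril, averaged 13.7 ± 1.15 CPM in nontreated EBs and 0.802 ± 0.348 CPM in NSD1-dTAG mESCs. Col5a1, which nucleates fibrils, had 84.2, 78.3 and 29.4 CPM in nontreated EBs, against 12.03, 15.2 and 16.5 CPM in NSD1-dTAG mESCs (log2 2.15 ± 0.37), and its partner Col5a2 had 2.14, 1.98 and 1.46 CPM in nontreated EBs, against 0.421, 0.415 and 0.383 CPM in NSD1-dTAG mESCs (log2 2.20 ± 0.27). For both, every EB library was above every mESC library, with EB replicate 3 the lowest of its group. Col11a1, a minor fibrillar chain, was the exception, with 4.39, 4.10 and 4.31 CPM in nontreated EBs, against 2.99, 3.66 and 4.34 CPM in NSD1-dTAG mESCs (log2 0.24 ± 0.19, edgeR adjusted p = 0.305). Col3a1 had 56 counts in nontreated EBs and 0 in NSD1-dTAG mESCs, at least 16.6-fold more.

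All 7 FACIT chains tested were higher, with Col9a2 at 10.1 ± 1.01 in nontreated EBs and 0.288 ± 0.0283 in NSD1-dTAG mESCs. The FACIT chain Col20a1 lost its call without EB replicate 1 (log2 0.96, adjusted p = 0.0605), EB replicate 2 (0.96, adjusted p = 0.0632) or mESC replicate 2 (0.98, adjusted p = 0.0636). The FACIT chain Col9a3 shares 234 bases (6.07% of its exons) with Tcfl5 on the opposite strand, and Tcfl5 was itself higher in EBs (log2 4.98). The counted strand is not given in the sources used here, so reads in those bases cannot be assigned to 1 of the genes. Of the 7 beaded-filament, anchoring or network chains tested 6 were higher. Col6a2, a chain of beaded microfibrils, had 4.25, 3.09 and 4.10 CPM in nontreated EBs, against 0, 0.0755 and 0.0425 CPM in NSD1-dTAG mESCs. Its counts were 326 and 3, a ratio of 96.4 (95% counting interval 32.7 to 470). Col26a1 had 1.64, 2.28 and 0.891 CPM in nontreated EBs, against 0.613, 0.377 and 0.510 CPM in NSD1-dTAG mESCs (log2 1.70 ± 0.40), and Col6a4 was not called (log2 -0.40). All 3 transmembrane collagens tested were higher: Col23a1 had 3.36, 4.74 and 1.92 CPM in nontreated EBs, against 0.0383, 0 and 0.0425 CPM in NSD1-dTAG mESCs, 289 counts against 2 counts and a ratio of 128 (95% counting interval 35.2 to 1063). Col25a1 was at least 23.9-fold higher. The call of Col13a1 was lost without EB replicate 2 (log2 1.29, adjusted p = 0.0934), mESC replicate 1 (2.06, adjusted p = 0.0544) or mESC replicate 3 (1.77, adjusted p = 0.0669).

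**Figure D2:**
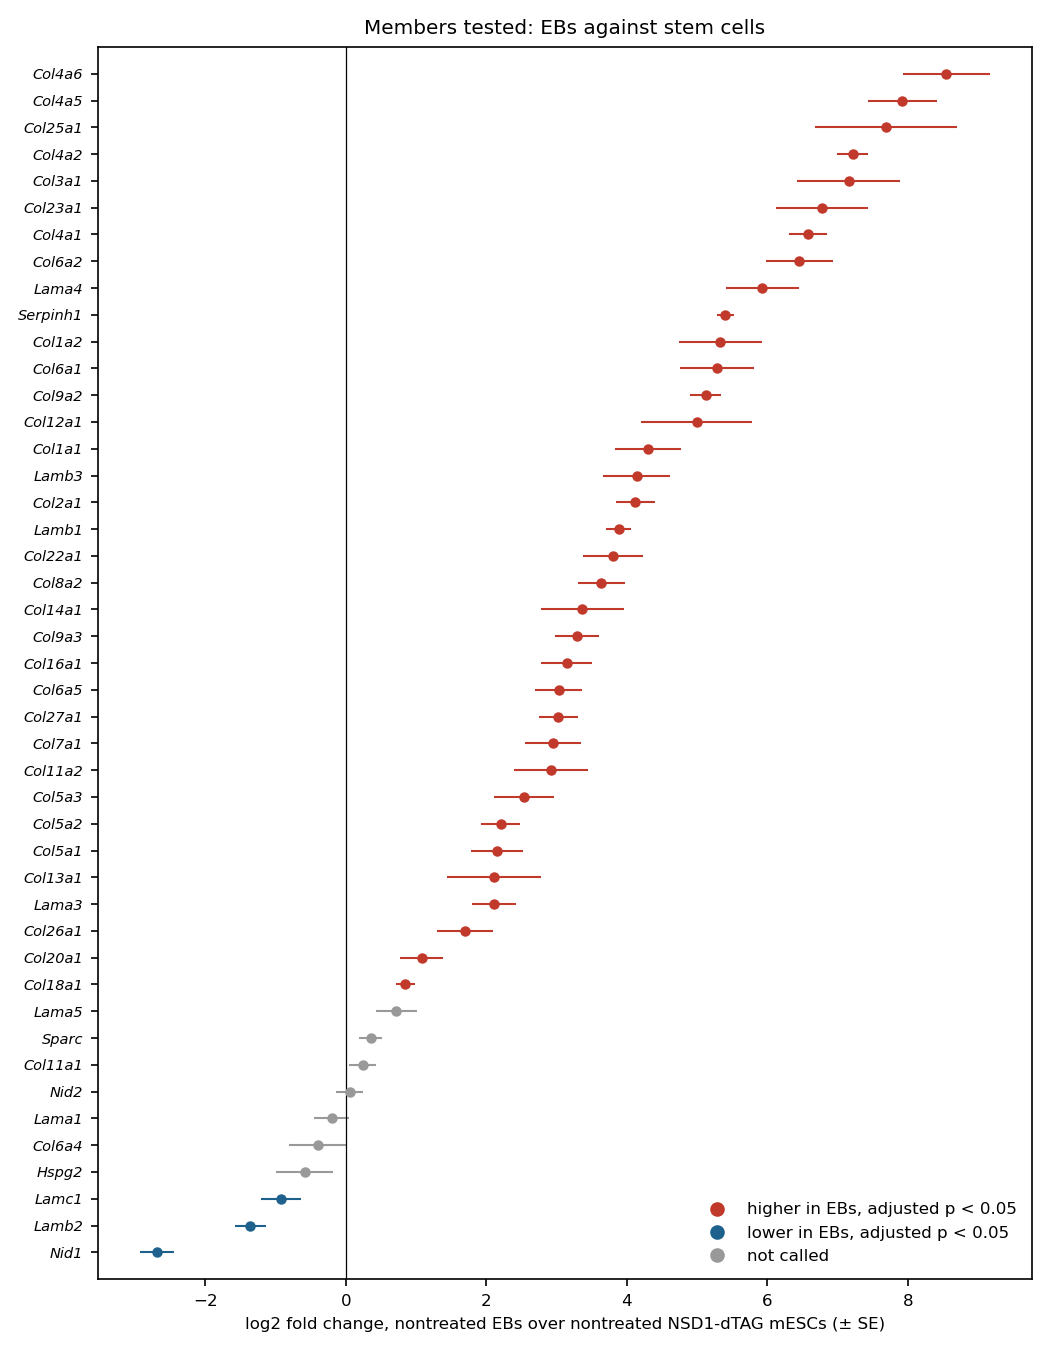
Fitted log2 fold change ± SE of 45 of the 46 members tested, nontreated EBs over nontreated NSD1-dTAG mESCs, coloured by edgeR's call at an adjusted p below 0.05 (n = 3 each). Collagen IV chains and Serpinh1 lie among the highest and Nid1, Lamb2 and Lamc1 are the 3 lower members; Col4a6, Col3a1 and Col25a1 had 0 counts in mESCs, so their fitted positions depend on the fit's prior count.

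Genes that act around these chains were also counted. Of 20 other basement membrane genes tested, 14 were higher and 1 lower in EBs (median log2 3.98), with the peroxidase gene Pxdn, which crosslinks collagen IV, at 151, 164 and 134 CPM in nontreated EBs, against 0.574, 1.09 and 0.893 CPM in NSD1-dTAG mESCs. Of 29 collagen-modifying and secretion genes tested, 15 were higher and 8 lower (median 0.80). The prolyl isomerase gene Fkbp10 (log2 3.25 ± 0.15) and Bmp1 (log2 5.48 ± 0.30), the procollagen C-proteinase, were higher, and Crtap, a subunit of the prolyl 3-hydroxylase complex, was lower (log2 -2.17 ± 0.11). Of 20 matrix receptors 13 were higher and 2 lower (median 0.78), led by the laminin-binding integrin Itga3 (log2 6.38 ± 0.22), and of 14 turnover genes 11 were higher and 3 lower (median 3.35), among them the inhibitor Timp2 (log2 5.84 ± 0.29). Beside these, 11 of 11 parietal endoderm markers tested were higher, and of 13 visceral endoderm markers 12 were higher and 1 lower. A listed gene that passes the count filter only through EBs had to differ. Between the mESC lines only 4 parietal and 4 visceral endoderm markers passed the filter. Of 8 mesenchyme markers tested 4 were higher and 2 lower, and of 6 endothelium markers 4 were higher and 2 lower. All 7 pluripotency genes were lower. Whether endoderm or any other cells account for the matrix genes was not tested.

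The comparison of dTAG-13 EBs with nontreated EBs asks how these genes differ when the tagged line differentiates with the compound. An effect of losing NSD1 and one of dTAG-13 itself cannot be told apart in it. Of 48 members tested, Col5a2 and Col9a3 were higher and Col11a1, Col13a1 and Col4a5 lower by edgeR at an adjusted p below 0.05, against 3.98% of 15236 genes higher and 2.78% lower. With the replicate number as a block 4 were higher and 4 lower, against 1046 of 15236 genes higher and 788 lower. The median log2 fold change was -0.05 over the members tested and -0.01 over all genes. No laminin chain, nidogen or perlecan passed the test.

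Col11a1 had 0.696, 0.526 and 0.441 CPM in dTAG-13 EBs, against 4.39, 4.10 and 4.31 CPM in nontreated EBs. The dTAG-13 libraries rest on 19, 15 and 12 counts, the nontreated ones on 123, 122 and 121 counts, and the groups do not approach each other. The log2 fold change was -2.94 ± 0.23 (SE; edgeR adjusted p = 0.00196), a 7.66-fold lower level that was called in 15 of 15 alternatives. It is also below the mESC level, where Col11a1 stood at 2.53 to 4.34 CPM in the 9 libraries. Its fibrillar partner Col11a2 was not called (log2 -0.38 ± 0.43, adjusted p = 0.682), nor was Col2a1 (log2 0.13 ± 0.21, adjusted p = 0.791), with which both chains form cartilage fibrils.

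Col5a2, the second chain of collagen V, had 6.85, 5.40 and 7.13 CPM in dTAG-13 EBs, against 2.14, 1.98 and 1.46 CPM in nontreated EBs (log2 1.79 ± 0.21, edgeR adjusted p = 0.00618), and was higher in all 3 dTAG-13 libraries. Col5a1, which pairs with it, had 47.9, 45.0 and 50.8 CPM in dTAG-13 EBs, against 84.2, 78.3 and 29.4 CPM in nontreated EBs (log2 -0.42 ± 0.33, edgeR adjusted p = 0.532). Col5a1 was called lower without replicate 3 of the nontreated EBs (-0.76, adjusted p = 0.00572). The ratio of Col5a1 to Col5a2 per kb was 7.90, 9.40 and 8.05 in dTAG-13 EBs, against 44.4, 44.6 and 22.8 in nontreated EBs, so these values do not overlap either. Col9a3 had 6.16, 6.18 and 7.06 CPM in dTAG-13 EBs, against 2.93, 2.18 and 2.60 CPM in nontreated EBs (log2 1.33 ± 0.17, edgeR adjusted p = 0.00843). Its overlapping neighbour Tcfl5 was not called (log2 0.18 ± 0.13). Both Col5a2 and Col9a3 were called in 15 of 15 alternatives. Col9a2, the partner of Col9a3, was higher in every same-numbered pair without being called (log2 0.47 ± 0.15, adjusted p = 0.114).

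Of the X-linked collagen IV pair Col4a5 was lower and Col4a6 just missed the test. Col4a5 had 1.91, 2.25 and 1.73 CPM in dTAG-13 EBs, against 4.04, 4.70 and 3.99 CPM in nontreated EBs (log2 -1.12 ± 0.19, edgeR adjusted p = 0.0160). Col4a6 had 26, 24 and 12 counts in dTAG-13 EBs, against 42, 57 and 48 counts in nontreated EBs (log2 -1.19 ± 0.30, edgeR adjusted p = 0.0573). In both genes every dTAG-13 library lay below every nontreated library, and Col4a6 was called with the replicate number as a block (adjusted p = 0.0492). The Col4a5 call was lost without nontreated replicate 1 (-1.16, adjusted p = 0.0517), nontreated replicate 2 (-1.04, adjusted p = 0.0728) or dTAG-13 replicate 1 (-1.10, adjusted p = 0.0716). Col13a1, a transmembrane collagen of neuromuscular junctions, had 0.220, 0.246 and 0.110 CPM in dTAG-13 EBs, against 1.21, 2.82 and 0.499 CPM in nontreated EBs, from 6, 7 and 3 counts against 34, 84 and 14 counts. The nontreated values spread widely, and its log2 fold change of -2.95 ± 0.68 (edgeR adjusted p = 0.0421) kept its call without nontreated replicate 3 but not without any other single library, where it ranged from -3.16 to -2.14 with adjusted p of 0.0828 to 0.123.

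**Figure D3:**
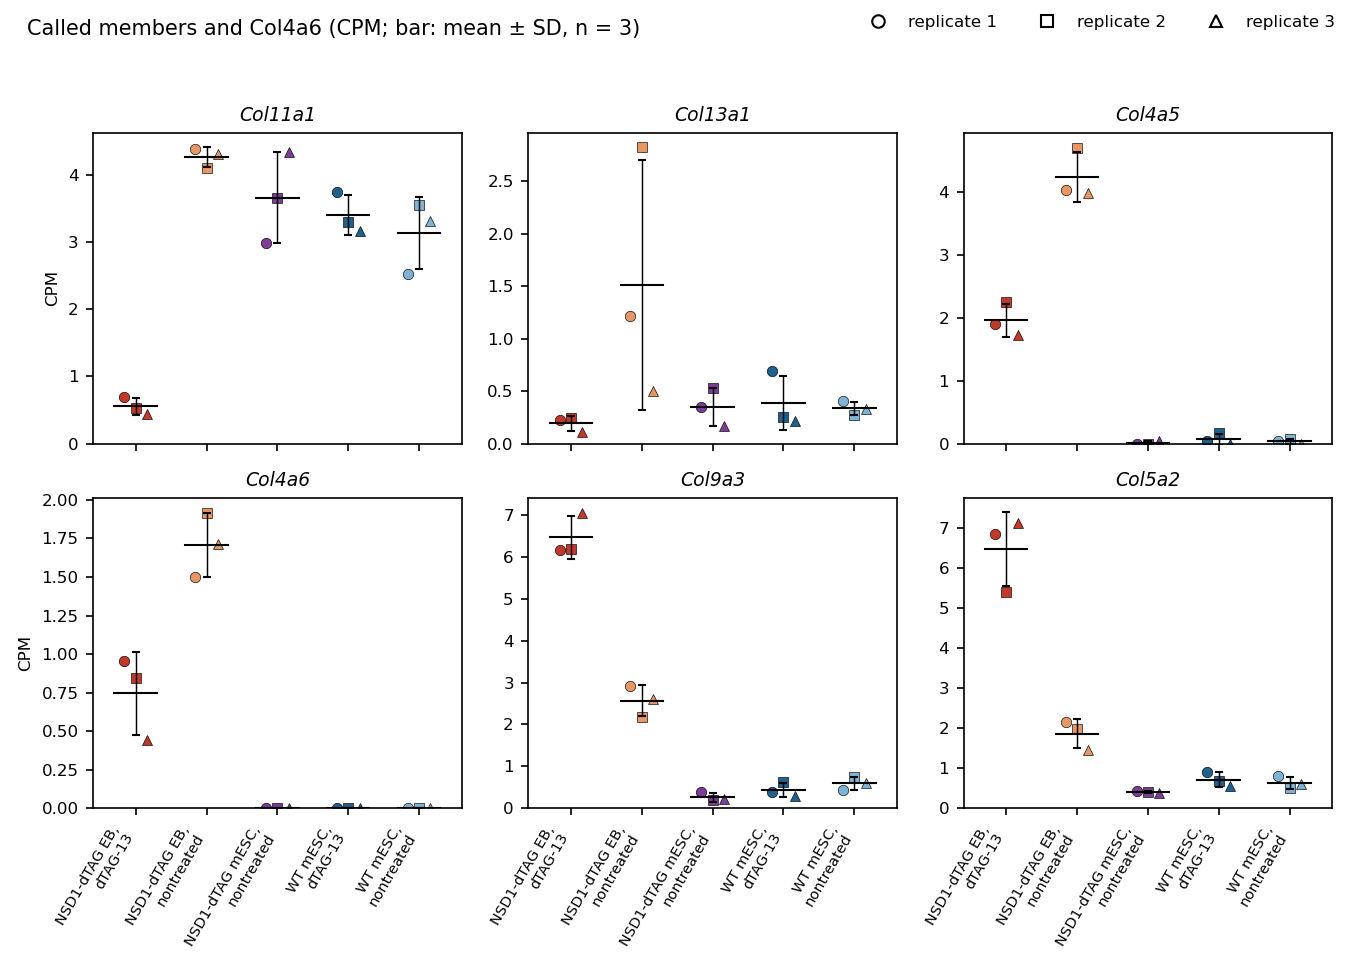
CPM on a linear axis in each library of the 5 groups, with mean ± SD (n = 3), for the 5 members called between dTAG-13 and nontreated EBs and for Col4a6. Col11a1 is the lowest in dTAG-13 EBs of all groups, Col4a5 and Col4a6 are near 0 in mESCs and lower in dTAG-13 than in nontreated EBs, and Col9a3 and Col5a2 are highest in dTAG-13 EBs.

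Some abundant members, among them Col4a1, Col4a2, Lama1, Sparc and Serpinh1, were lower with dTAG-13 in replicates 1 and 2 and higher in replicate 3. Col18a1 and Lama5 were higher in all 3. Col4a1 had 188, 138 and 451 CPM in dTAG-13 EBs, against 310, 220 and 307 CPM in nontreated EBs (log2 -0.11 ± 0.39, edgeR adjusted p = 0.911), and Col4a2 had 96.8, 65.0 and 236 CPM in dTAG-13 EBs, against 169, 115 and 157 CPM in nontreated EBs (log2 -0.15 ± 0.42, edgeR adjusted p = 0.881). For both chains dTAG-13 replicates 1 and 2 were below all nontreated libraries and replicate 3 was above all. The ratio of Col4a1 to Col4a2 per kb stayed at 1.72, 1.89 and 1.69 in dTAG-13 EBs, against 1.63, 1.69 and 1.73 in nontreated EBs, so the chains varied together between libraries. Lama1 had 94.1, 67.0 and 246 CPM in dTAG-13 EBs, against 185, 130 and 170 CPM in nontreated EBs (log2 -0.26 ± 0.42, edgeR adjusted p = 0.787). It was called lower without dTAG-13 replicate 3 (-1.01, adjusted p = 0.0264). Sparc had 243, 225 and 532 CPM in dTAG-13 EBs, against 363, 257 and 394 CPM in nontreated EBs, and Serpinh1 had 202, 212 and 390 CPM in dTAG-13 EBs, against 236, 232 and 241 CPM in nontreated EBs. Neither was called (log2 -0.03 ± 0.33 and 0.18 ± 0.23), and in both replicate 3 was the highest of the dTAG-13 libraries.

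Nid1 had 22.2, 18.7 and 30.1 CPM in dTAG-13 EBs, against 43.9, 37.3 and 29.1 CPM in nontreated EBs (log2 -0.64 ± 0.20, edgeR adjusted p = 0.107), and it was called lower without dTAG-13 replicate 3 (-0.85, adjusted p = 0.0325). Compared by replicate number, 14 of the 39 members with a mean of at least 1 CPM over the 6 EB libraries were lower with dTAG-13 in pairs 1 and 2 and higher in pair 3. None had the reverse pattern, 8 were lower in all 3 pairs and 7 were higher in all 3. In 10 members pairs 1 and 2 differed in direction. The share of all genes with each pattern was not counted, so none is shown to be particular to these members. Replicates 3 of both EB groups are the libraries that stand apart. Without them, 5 of 48 members tested were higher and 14 lower, against 1652 of 15463 genes higher and 1581 lower. The lower members included Col4a1 (-0.70, adjusted p = 0.0313), Col4a2 (-0.81, adjusted p = 0.0335), Lama1 (-0.97, adjusted p = 0.0118), Nid1 (-0.99, adjusted p = 0.00157) and Col23a1 (-1.91, adjusted p = 0.00295). These fits rest on 2 libraries per group. Leaving out nontreated replicate 3 alone called Col25a1 (-1.54, adjusted p = 0.0234) and Col26a1 (-1.64, adjusted p = 0.0208) lower.

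Markers of other cell types also varied between the EB libraries. The 12 parietal endoderm markers summed to 174, 190 and 388 CPM in dTAG-13 EBs, against 410, 440 and 410 CPM in nontreated EBs. None of them was at 0 in an EB library. Fst weighed heavily in these sums, with 1110, 2255 and 596 counts in dTAG-13 EBs, against 3914, 6187 and 4000 counts in nontreated EBs. Fst was lowest in dTAG-13 replicate 3, whereas Dab2 was highest there, at 6536 counts, so the sum mixes markers that differ in direction. The 13 visceral endoderm markers summed to 508, 473 and 757 CPM in dTAG-13 EBs, against 583, 405 and 547 CPM in nontreated EBs, again with none at 0. Lrp2 alone had 359, 350.1 and 352 CPM in dTAG-13 EBs, against 277, 164 and 200.05 CPM in nontreated EBs, and the other 12 summed to 149, 123 and 404 CPM in dTAG-13 EBs, against 306, 240.4 and 347 CPM in nontreated EBs. In both lists replicate 3 had the highest sum of the dTAG-13 EBs. Mesenchyme markers summed to 72.6, 83.4 and 95.2 CPM in dTAG-13 EBs, against 255, 317 and 162 CPM in nontreated EBs, with 0 to 2 of the 12 at 0 in a library. Vim made up most of these sums, at 57.4, 68.5 and 75.9 CPM in dTAG-13 EBs, against 229, 285 and 139 CPM in nontreated EBs. Endothelium markers summed to 73.5, 57.6 and 60.7 CPM in dTAG-13 EBs, against 127, 153 and 69.2 CPM in nontreated EBs, with 0 to 2 of the 10 at 0 in a library. By edgeR, 1 of 11 parietal endoderm markers tested, Fst, was lower with dTAG-13 (log2 -1.79 ± 0.41, adjusted p = 0.0389). Of 13 visceral endoderm markers 1 was lower and 1, Lrp2, higher (log2 0.72 ± 0.17, edgeR adjusted p = 0.0472). Of 7 mesenchyme markers 3 were lower, of 8 endothelium markers 3 were lower and 1 higher, and of 7 pluripotency genes 4 were lower. The part of these markers in the collagen and laminin results was not tested.

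**Figure D4:**
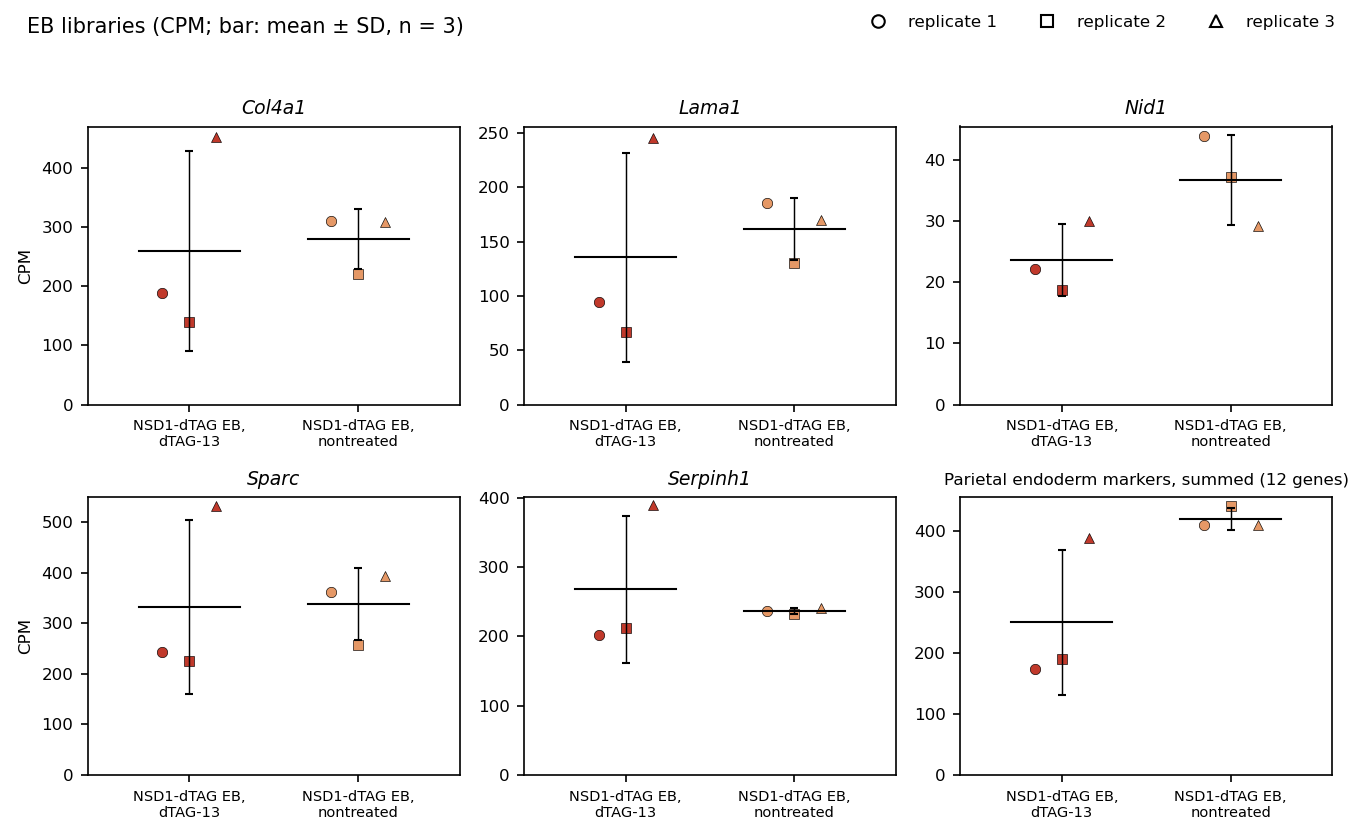
CPM on a linear axis starting at 0 in the 3 dTAG-13 and 3 nontreated EB libraries, with mean ± SD (n = 3). Panels show 5 members and the sum of 12 parietal endoderm markers. In dTAG-13 EBs, replicate 3 is the highest in each panel, and replicates 1 and 2 lie below the nontreated mean in each. The marker sum includes Fst, which was lowest in dTAG-13 replicate 3.

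No laminin chain passed the test. Lamb1 had 292, 285 and 360 CPM in dTAG-13 EBs, against 375, 311 and 284 CPM in nontreated EBs (log2 -0.05 ± 0.13, edgeR adjusted p = 0.873). Lamc1 had 388, 372 and 474 CPM in dTAG-13 EBs, against 482, 361 and 351 CPM in nontreated EBs (log2 0.04 ± 0.15, edgeR adjusted p = 0.908), and the groups of both overlap. Lama5 had 403, 413 and 270 CPM in dTAG-13 EBs, against 352, 268 and 215 CPM in nontreated EBs (log2 0.38 ± 0.21, edgeR adjusted p = 0.360). It was higher in each same-numbered pair and was called with the replicate block (adjusted p = 0.0498), as was the anchoring-fibril collagen Col7a1 (log2 0.91, adjusted p = 0.0267). The Lama1 to Lama5 ratio per kb was 0.275, 0.191 and 1.07 in dTAG-13 EBs, against 0.619, 0.571 and 0.927 in nontreated EBs. In both groups replicate 3 had the highest ratio. Nid2 had 784, 708 and 671 CPM in dTAG-13 EBs, against 883, 793 and 631 CPM in nontreated EBs, and Hspg2 had 369, 350 and 310 CPM in dTAG-13 EBs, against 419, 301 and 202 CPM in nontreated EBs. Col18a1 had 588, 511 and 612 CPM in dTAG-13 EBs, against 552, 504 and 520 CPM in nontreated EBs. None of the 3 was called, at log2 fold changes of -0.10 ± 0.13, 0.16 ± 0.23 and 0.11 ± 0.10.

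**Figure D5:**
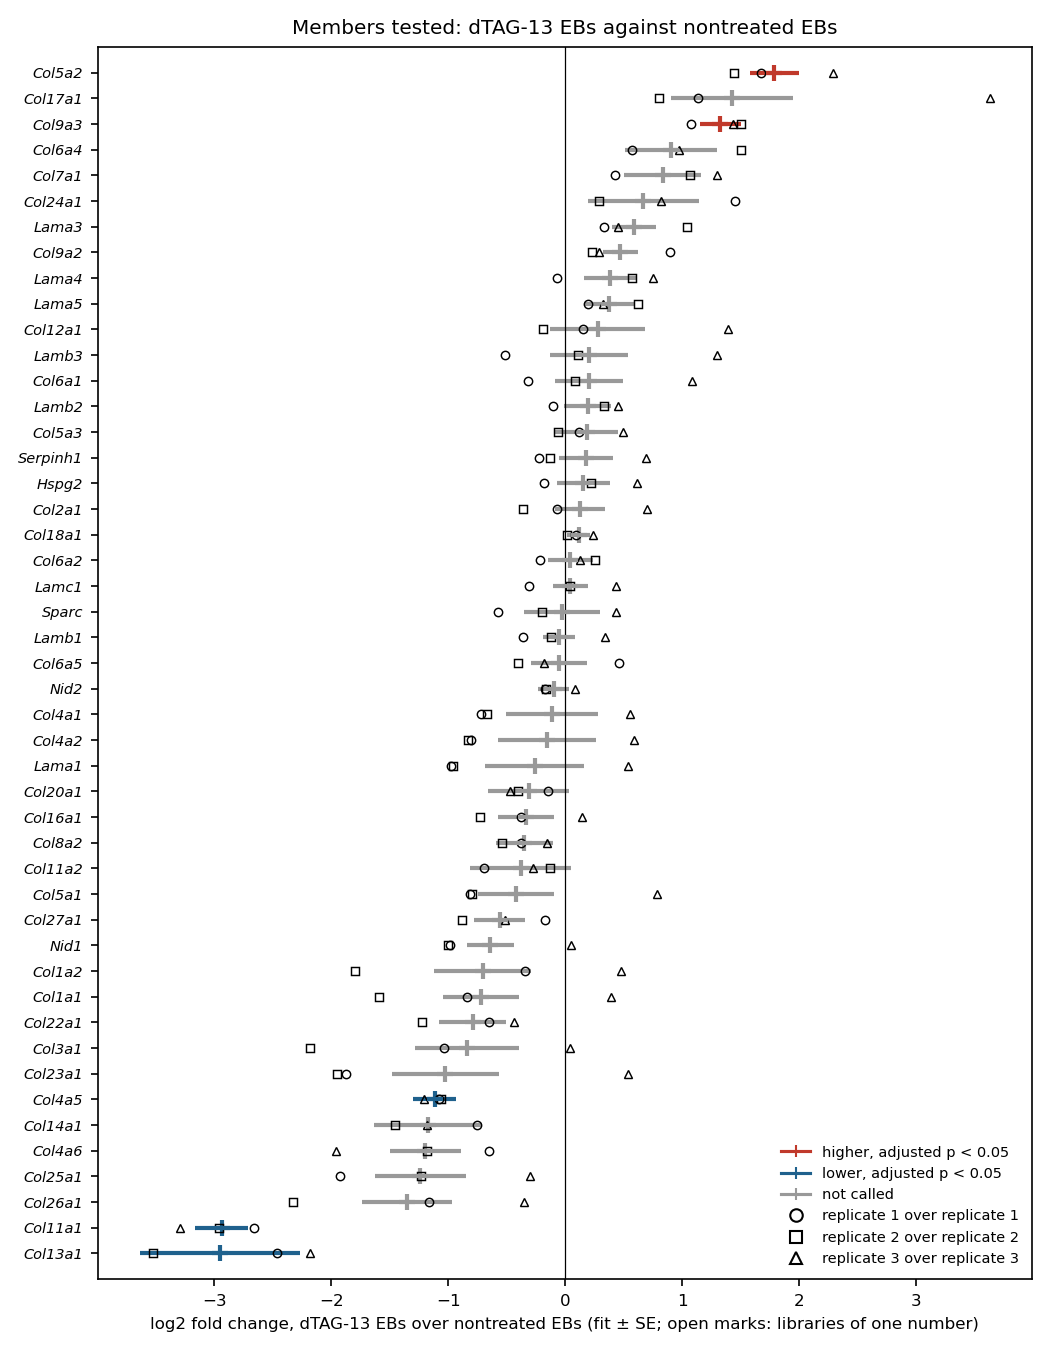
Log2 fold change of 47 of the 48 members tested, dTAG-13 EBs over nontreated EBs, as the fit ± SE coloured by call, with open marks for the difference between libraries of the same replicate number. Col11a1, Col13a1 and Col4a5 are lower and Col5a2 and Col9a3 higher; for Col4a1, Col4a2, Lama1, Col5a1, Nid1 and Col23a1 the triangle of replicate 3 lies to the right of 0 while replicates 1 and 2 lie to the left.

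Around the chains, 2 of 30 collagen-modifying genes tested were higher with dTAG-13 and 2 lower (median log2 -0.14). Loxl1, a lysyl oxidase that crosslinks collagen and elastin, had 7.59, 7.26 and 7.46 CPM in dTAG-13 EBs, against 2.93, 2.15 and 2.99 CPM in nontreated EBs (log2 1.46 ± 0.18, edgeR adjusted p = 0.00683). The endoplasmic reticulum prolyl isomerases went opposite ways, Fkbp10 higher (log2 0.69 ± 0.11, adjusted p = 0.0133) and Fkbp14 lower, with 0.990, 1.44 and 1.10 CPM in dTAG-13 EBs, against 4.61, 7.09 and 2.78 CPM in nontreated EBs (log2 -2.03 ± 0.35, adjusted p = 0.0180). Of 15 turnover genes tested, Mmp2 (log2 0.41) and Mmp11 (log2 0.65) were higher and the protease gene Adamts9 lower (log2 -1.81 ± 0.34). None of 21 other basement membrane genes (median -0.10) and none of 19 matrix receptors (median 0.11) was called. Without nontreated replicate 3 the fibronectin gene Fn1 was called lower (-1.48, adjusted p = 0.0103), against -1.12 with all libraries.

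To see whether dTAG-13 moves these genes where no tag is present, the wild-type mESCs given dTAG-13 were set against the nontreated ones. None of 29 members tested was called, against 0% of 13784 genes, and 0 members and 229 genes had an unadjusted p below 0.05 by edgeR. DESeq2 and limma-voom called 0 members as well, with 0 and 1 at an unadjusted p below 0.05. The median log2 fold change of the members was -0.02 and that of all genes -0.01. Col4a1 had 6.26, 5.41 and 4.38 CPM in dTAG-13 wild-type mESCs, against 4.80, 5.17 and 6.09 CPM in nontreated wild-type mESCs. Lamc1 had 759, 754 and 515 CPM in dTAG-13 wild-type mESCs, against 584, 738 and 748 CPM in nontreated wild-type mESCs. The groups overlap for both, and the low Lamc1 value of each group came from the library that stands apart. Serpinh1 had 12.1, 14.1 and 15.5 CPM in dTAG-13 wild-type mESCs, against 14.6, 13.6 and 16.0 CPM in nontreated wild-type mESCs.

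The difference between the 2 effects of dTAG-13 was tested as an interaction over 12 libraries, the effect in NSD1-dTAG EBs minus that in wild-type mESCs. Of 48 members tested, 2 were higher and 1 lower, against 1.6% of 15855 genes higher and 1.27% lower. Col11a1 had 3.74, 3.29 and 3.17 CPM in dTAG-13 wild-type mESCs, against 2.53, 3.55 and 3.32 CPM in nontreated wild-type mESCs, so its log2 fold change was -2.94 in EBs and 0.13 in mESCs, a difference of -3.07 ± 0.28 (edgeR adjusted p = 0.000107). That of Col5a2 was 1.79 in EBs and 0.16 in mESCs, a difference of 1.62 ± 0.36 (adjusted p = 0.0300), and that of Col9a3 was 1.33 in EBs and -0.43 in mESCs, a difference of 1.75 ± 0.38 (adjusted p = 0.0265). Col5a2 and Col9a3 were at 0.916 CPM or less in wild-type mESC libraries, so their mESC effects rest on 7 to 24 counts a library. The Col5a2 call was lost without any 1 of the nontreated wild-type libraries, dTAG-13 wild-type replicate 2 or 3, nontreated EB replicate 2 or dTAG-13 EB replicate 1, where the difference was 1.40 to 1.76 and the adjusted p 0.0517 to 0.116. The Col9a3 call was lost without nontreated wild-type replicate 2 or 3, dTAG-13 wild-type replicate 1 or 3, nontreated EB replicate 2 or dTAG-13 EB replicate 1, where the difference was 1.52 to 1.79 and the adjusted p 0.0513 to 0.116. Stage, the tag and the length of treatment differ between these comparisons together and cannot be told apart. Col4a5 and Col13a1 were not called in the interaction (edgeR adjusted p = 0.477 and 0.114). Neither passed the count filter in the comparison within wild-type mESCs. Wild-type libraries held 0 to 4 counts of Col4a5 and 5 to 18 counts of Col13a1, so their mESC effects are poorly measured.

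The tagged line was also set against wild-type cells, nontreated NSD1-dTAG mESCs against nontreated wild-type mESCs. Of 26 members tested, 1 was higher and 3, Serpinh1, Lamb3 and Lamb1, were lower by edgeR, against 0.547% of 13895 genes higher and 1.32% lower. The median log2 fold change was -0.23 over the members tested and 0.01 over all genes.

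Serpinh1 had 5.90, 5.96 and 5.10 CPM in NSD1-dTAG mESCs, against 14.6, 13.6 and 16.0 CPM in nontreated wild-type mESCs (log2 -1.39 ± 0.11, edgeR adjusted p = 0.00892). Lamb1 had 18.2, 24.1 and 24.1 CPM in NSD1-dTAG mESCs, against 35.5, 40.7 and 42.1 CPM in wild-type mESCs (log2 -0.84 ± 0.14, edgeR adjusted p = 0.0429). Lamb3 had 0.153, 0.264 and 0.170 CPM in NSD1-dTAG mESCs, against 0.915, 1.03 and 1.58 CPM in wild-type mESCs (log2 -2.52 ± 0.36, edgeR adjusted p = 0.0263), from 4 to 7 counts a library against 25 to 29. For these 3 genes the groups do not overlap, and for Serpinh1 and Lamb1 the range within each group is smaller than the gap between them.

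These calls depend on the set of libraries and on the scaling. Leaving out any library of the wild-type group, or NSD1-dTAG replicate 2, removed the calls of all 3, and leaving out NSD1-dTAG replicate 3 removed all but that of Serpinh1. The adjusted p without wild-type replicate 1, 2 or 3 was 0.0775, 0.0785 and 0.0991 for Serpinh1, 0.0927, 0.121 and 0.105 for Lamb3, and 0.118, 0.201 and 0.210 for Lamb1. Without NSD1-dTAG replicate 2 it was 0.0634, 0.0917 and 0.119 for Serpinh1, Lamb3 and Lamb1, and without NSD1-dTAG replicate 3 it was 0.101 and 0.108 for Lamb3 and Lamb1. Across these 5 fits without 1 library the log2 fold changes kept their sign, at -1.44 to -1.33 for Serpinh1, -2.79 to -2.28 for Lamb3 and -0.92 to -0.79 for Lamb1. Scaling by the spike-ins moved the median of all genes to -0.10 and called 0 members. The libraries that stand apart, replicate 1 in both groups, were the lowest of their groups for 3 abundant genes, with Lamc1 at 446, 939 and 906 CPM in NSD1-dTAG mESCs, against 584, 738 and 748 CPM in wild-type mESCs, Hspg2 at 213, 607 and 579 CPM in NSD1-dTAG mESCs, against 268, 396 and 394 CPM in wild-type mESCs, and Nid2 at 568, 851 and 826 CPM in NSD1-dTAG mESCs, against 500.1, 590.2 and 595 CPM in wild-type mESCs. Without NSD1-dTAG replicate 1, 9 of 29 members tested were higher and 5 lower, against 608 of 14035 genes higher and 640 lower. Among the higher members were Hspg2 (0.75, adjusted p = 0.00722), Nid2 (0.58, adjusted p = 0.00153) and Nid1 (0.56, adjusted p = 0.00172). With the replicate number as a block, Col4a1 (log2 -0.87, adjusted p = 0.0310) was lower and Sparc (0.29, adjusted p = 0.0469) higher as well. This made 2 members higher and 4 lower, against 292 of 13895 genes higher and 493 lower.

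Of the surrounding genes, Smoc1, which encodes a secreted calcium-binding protein of basement membranes, had 3.14, 3.06 and 3.11 CPM in NSD1-dTAG mESCs, against 10.4, 11.1 and 8.37 CPM in wild-type mESCs (log2 -1.70 ± 0.14, edgeR adjusted p = 0.00892) and was the only one of 13 tested to be called. Of 19 matrix receptors 1 was called, Bcam, the receptor for laminin alpha 5, which had 252, 246 and 234 CPM in NSD1-dTAG mESCs, against 139, 137 and 136 CPM in wild-type mESCs (log2 0.82 ± 0.07, adjusted p = 0.00892). Of 9 turnover genes the inhibitor Timp2 was lower (log2 -1.79 ± 0.32, adjusted p = 0.0458), and of 23 collagen-modifying genes none was called.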

How the data were processed

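The authors deposited raw counts per gene and per spike-in for each library. Per the labels' protocols, poly(A) RNA with ERCC Mix 1 went into strand-specific libraries, and the submitters' processing notes name bcl2fastq, STAR, DESeq2 1.30.0 and mouse builds GRCm38.p6 and mm10. The sources used here state neither the counted strand nor the gene annotation. Of 55471 gene IDs 55230 matched GENCODE M21, and 241 without a symbol stayed in the tests.

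Each comparison was fitted on its own 6 libraries over all genes (12 libraries for the interaction) with edgeR 4.0.16 in R 4.3.3, using TMM scaling, filterByExpr and the quasi-likelihood test, and called at a Benjamini-Hochberg adjusted p below 0.05. The fits were tested on simulated data. DESeq2 1.42.0, limma 3.58.1 (voom), no filter, other scalings, a gene-length offset, a replicate block, all 15 libraries in 1 fit and fits without single libraries or without the libraries that stand apart were alternatives. Intervals of count ratios are exact 95% binomial (Clopper-Pearson) and cover counting error only, and folds against 0 counts use 3 counts over the group. Depth limits members with few counts most.

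Libraries with the same replicate number deviated together between dTAG-13 and nontreated EBs (correlations 0.20, 0.23 and 0.36) and between NSD1-dTAG and wild-type mESCs (0.36, 0.15 and 0.13), so the numbers may pair the libraries there; the calls given are those of the fits without the block unless the block is named. They did not for dTAG-13 against nontreated wild-type mESCs (-0.11, 0.11 and -0.09) or for EBs against mESCs (-0.15, 0.09 and -0.21).

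The members and the gene lists were chosen with earlier results of these data known. Any member could be named. Values of every library are given for 12 core members and for members called between the EB groups or between the mESC lines. They are also given for the 8 highest and 8 lowest called changes between EBs and mESCs at a mean of 1 CPM or more. From each list, up to 3 called genes by adjusted p could be named, or, with none called, the 2 of highest CPM. Other values per library or pair were chosen after they were seen. 1 gene is counted among the members but not reported here.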

Additional observations from a re-analysis of the deposited data

Results flagged for a closer look

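The effect of dTAG-13 differed between NSD1-dTAG EBs and wild-type mESCs for 3 members in the interaction test of edgeR's quasi-likelihood fit. For Col11a1 the log2 effect in EBs minus that in wild-type mESCs was -3.07, for Col5a2 it was 1.62 and for Col9a3 it was 1.75. The Col11a1 difference was called in 21 of 21 alternatives, that of Col5a2 in 12 and that of Col9a3 in 15. Stage, tag and length of treatment changed together between these comparisons and cannot be told apart.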

How the results depend on the processing

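No member reversed its direction among the called results. Between EBs and NSD1-dTAG mESCs 38 of 46 members and 9037 of 15193 genes tested were called. Both counts stayed within 1.5 times under every alternative. On the same sets edgeR with a replicate block called 38 members and 7999 genes, not Lamc1 (log2 -0.87, adjusted p = 0.0555). Between dTAG-13 and nontreated EBs 5 of 48 members and 1030 of 15236 genes tested were called. On the same sets DESeq2 called 8 members and 1686 genes, and the replicate block 8 members and 1834 genes. The block with a gene-length offset called 7 members and 1826 genes. No count filter called 8 of 59 members and 1525 of 28566 genes. With all 15 libraries in 1 fit, 7 of 48 members and 1931 of 16024 genes were called. The fit without the libraries that stand apart called 19 of 48 members and 3233 of 15463 genes. Leaving out 1 library gave 3 to 8 of 48 or 49 members and 182 to 1293 of 15547 to 15640 genes. Between NSD1-dTAG and wild-type mESCs 4 of 26 members and 259 of 13895 genes tested were called. On the same sets DESeq2 called 6 members and 636 genes, and the replicate block 6 members and 785 genes. The length offset called 8 members and 650 genes, and block and offset together 12 members and 1393 genes. Spike-in scaling called 0 members and 1 gene. With all libraries in 1 fit, 4 of 48 members and 500 of 16024 genes were called. The fit without the libraries that stand apart called 20 of 27 members and 3123 of 13762 genes. Leaving out 1 library gave 0 to 14 of 27 to 30 members and 1 to 1248 of 13951 to 14242 genes. The interaction called 3 of 48 members and 456 of 15855 genes tested. On the same sets DESeq2 called 4 members and 799 genes, and the block with the offset 4 members and 719 genes. No filter called 6 of 59 members and 915 of 30609 genes. The fit without the libraries that stand apart called 7 of 48 members and 1897 of 15990 genes. Single omissions gave 1 to 5 of 48 members and 202 to 763 of 16154 to 16314 genes. For dTAG-13 in wild-type mESCs, 16 of 13861 genes and 0 of 29 members were called without the libraries that stand apart, against 0 genes with them. The cause of these changes was not tested. Members with under 30 counts a library are the least precise.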
